A study of Mus musculus with 6 samples.

Results

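The genes described here encode the subunits of activin and inhibin (Inhba, Inhbb and Inha), the antagonist follistatin and its relatives (Fst, Fstl3 and Fstl1), and the receptors that bind activin and the closely related type I receptor (Acvr1, Acvr1b, Acvr2a and Acvr2b). They were chosen by name, with earlier results of these data known. Each was read from the brightest probe set that the platform annotation assigns to that gene alone. All 10 genes had such a probe set, 1 for each, among 19938 genes measured in this way. Total RNA was measured on 6 Mouse Gene 1.0 ST arrays from Affymetrix, 3 of AGR cells and 3 of NME cells. NME is the name of NMuMG cells, a mammary gland line of the mouse, into which EGFR was introduced with a virus, so that they overexpress it. AGR cells descend from 1 colony of NME cells that grew large in 3D culture under 1 µM AG1478, an inhibitor of the EGFR kinase. The colony was picked and expanded. Both lines therefore carry the EGFR transgene, and no arrays of NMuMG cells without it were analysed here. AGR cells represent a single resistant colony. Resistant lines were kept in DMEM with serum and insulin, without drug.

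Activins are dimers of β subunits. Activin A is made of the product of Inhba and activin B of the product of Inhbb, and a β subunit joined to the α subunit from Inha gives an inhibin, which opposes activin. Activin binds a type II receptor (Acvr2a or Acvr2b), which recruits the type I receptor Acvr1b, also called ALK4, and this kinase phosphorylates SMAD2 and SMAD3. They enter the nucleus with SMAD4. Follistatin binds activin outside the cell and keeps it from its receptors. In the mammary gland of the mouse, loss of the βB subunit impairs duct growth and milk production, and in many epithelial cells activin can induce EMT in the way that TGF-β does.

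Proximal promoters of the 10 genes were searched as a description. Those of Inhba and Inhbb, which rose, and of Acvr2a, which fell, are printed here. Sequences were taken from RefSeq (GRCm38.p6), from 250 bases before to 50 bases after a transcript start, and were found for 9 of the 10 genes. No window was listed for Fst. For Inhba the window is chr13:16011601-16011900 on the plus strand, for Inhbb it is chr1:119422199-119422498 on the minus strand, and for Acvr2a it is chr2:48813859-48814158 on the plus strand. Capitals mark matches to any of the 7 motifs searched on both strands.
Inhba: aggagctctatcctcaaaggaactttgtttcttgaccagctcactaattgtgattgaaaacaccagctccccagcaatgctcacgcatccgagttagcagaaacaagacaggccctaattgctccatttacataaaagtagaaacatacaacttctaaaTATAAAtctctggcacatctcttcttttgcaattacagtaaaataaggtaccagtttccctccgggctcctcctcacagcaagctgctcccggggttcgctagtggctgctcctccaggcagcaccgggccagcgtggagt
Inhbb: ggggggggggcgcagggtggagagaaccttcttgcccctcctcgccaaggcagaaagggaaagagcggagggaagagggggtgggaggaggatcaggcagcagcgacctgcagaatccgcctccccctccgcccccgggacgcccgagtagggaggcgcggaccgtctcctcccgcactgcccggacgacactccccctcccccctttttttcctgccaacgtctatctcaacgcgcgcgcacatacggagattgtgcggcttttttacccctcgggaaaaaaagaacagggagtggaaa
Acvr2a: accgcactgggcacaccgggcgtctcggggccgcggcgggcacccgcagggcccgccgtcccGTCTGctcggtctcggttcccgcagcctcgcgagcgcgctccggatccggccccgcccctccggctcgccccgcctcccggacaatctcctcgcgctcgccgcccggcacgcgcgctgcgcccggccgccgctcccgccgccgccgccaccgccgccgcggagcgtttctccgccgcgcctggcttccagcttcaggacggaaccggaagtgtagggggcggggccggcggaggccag
The motif CAGAC is known to be bound by SMADs. AP-1, formed by Fos and Jun proteins, was represented by TGACTCA. The E-box to which Zeb and Snail repressors bind was searched as CACCTG. TEAD factors, which act with YAP, were represented by CATTCC. For the cyclic AMP response element the letters TGACGTCA were used. The TATA box was searched as TATAAA, and the CCAAT box as CCAAT. No motif lies within another. The Inhba window held TATAAA, starting at position -91 from the listed start, and none of the other motifs. TATAAA was present in 13.6% of 32851 mouse promoter windows of this length. The Inhbb window held none of the 7 motifs. The Acvr2a window held CAGAC once, on the minus strand (printed as GTCTG) at position -188, a motif that 49.6% of all windows contained. The windows also differed in base composition. The Inhba window had a GC content of 47.7% with 7 CpG dinucleotides, the Inhbb window had 64.3% with 23, and the Acvr2a window had 80.3% with 54, where the median window had 52.7%. Of the other genes, Fstl3 held 4 matches (CAGAC in 2 places, CACCTG and TATAAA), Inha held 2 (CAGAC and CCAAT), Acvr2b held 1 (CAGAC), and Fstl1, Acvr1 and Acvr1b held 0. These are matches of letters and do not show binding.

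The arrays were similar in overall signal. Median intensities lay between 190.4 and 200.8, and log2 intensities over all probe sets, which are not independent, correlated at 0.995 to 0.997 within a cell line and at 0.986 to 0.988 between the lines. AGR replicate 2 stood apart in 36 genes, in which it differed by more than 2-fold from the other AGR arrays, against 0 to 7 genes for any other array. Krt8 and Krt18, keratins of simple epithelium, had mean log2 intensities of 14.13 and 13.58 in AGR cells and 14.23 and 13.63 in NME cells. Epcam, another epithelial marker, lay at 6.51 in AGR cells and 6.58 in NME cells, under the median of all probe sets at 7.61. No background level was measured, so this median is a chosen limit, and a signal below it was not told apart from background. The sources used here do not say whether replicate arrays were made from separate cultures, and the p-values therefore cover only the spread among these 6 arrays. In bulk RNA a change in the share of cells that express a gene and a change in RNA per cell cannot be told apart.

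Expression of the ligand and antagonist genes was compared first. In AGR cells 3 of the 10 genes rose at an adjusted p under 0.05, namely Inhba, Inhbb and Fst, and 1 fell, namely Acvr2a (limma, Benjamini-Hochberg adjustment over all 19938 genes). Of all genes, 12.6% were called higher and 11.6% lower by this rule, 24.2% in either direction. The 3 genes that rose had a fold change (FC) above 2, which together with the adjusted p was met by 1.50% of all genes in the upward direction, by 1.50% in the downward direction and by 3.00% in all. The other 6 genes did not pass the test. The median log2 FC over the 10 genes was -0.0081, against -0.017 over all genes.

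**Figure D1:**
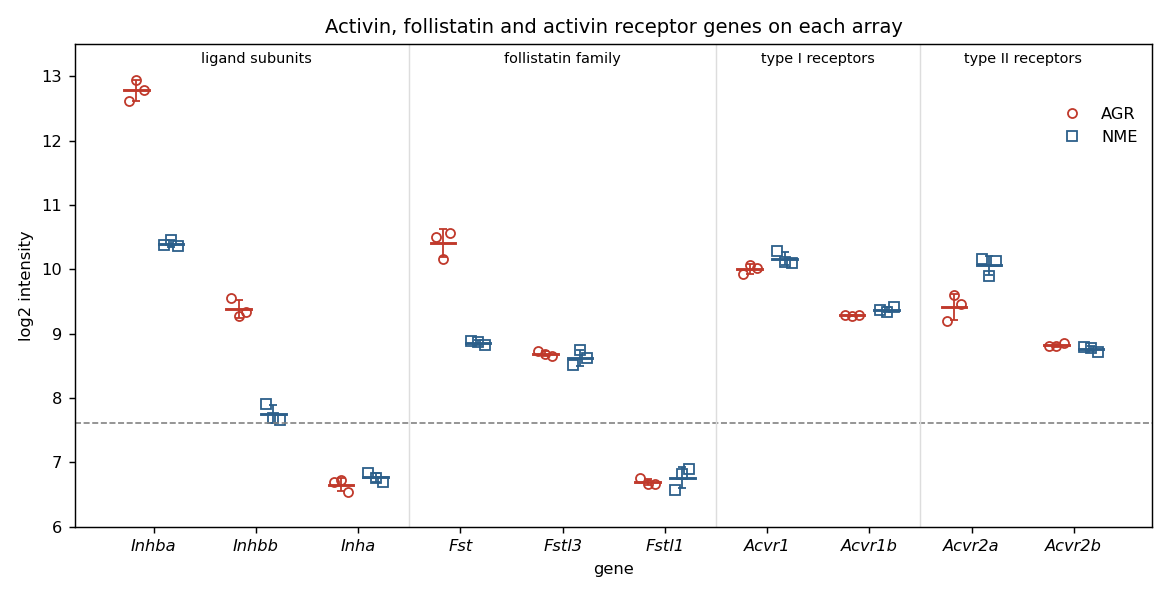
Log2 intensity (y axis) of the 10 genes (x axis) on each AGR array (red circles) and each NME array (blue squares), with the mean (bar) and SD (whiskers). The dashed line is the median of all probe sets, 7.61. Inhba, Inhbb and Fst are higher on all 3 AGR arrays and Acvr2a is lower, and levels of different genes come from different probes and are not comparable.

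Inhba, which encodes the βA subunit of activin A, had the largest change of the 10 genes. Its intensity was 6287, 7855 and 7051 on the AGR arrays, against 1328, 1409 and 1318 on the NME arrays. Every AGR array was thus far above every NME array. On the log2 scale the mean was 12.78 ± 0.16 (SD, n = 3) in AGR cells and 10.40 ± 0.053 (SD, n = 3) in NME cells. This was a 5.21-fold increase (log2 FC 2.38, SE 0.084, adjusted p = 7.5e-06 from limma), and it ranked 28 among the increases of all 19938 genes. 

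Inhbb, which encodes the βB subunit of activin B, also rose. Its log2 intensity was 9.55, 9.27 and 9.34 on the AGR arrays, against 7.91, 7.68 and 7.66 on the NME arrays. The groups did not overlap, and the NME arrays lay close to the median of all probe sets. The FC was 3.11 (log2 FC 1.64, SE 0.096, adjusted p = 6.1e-05 from limma). Inha, the gene of the inhibin α subunit, was dim in both lines. Its log2 intensity was 6.69, 6.73 and 6.54 on the AGR arrays and 6.84, 6.76 and 6.70 on the NME arrays, with overlap between the lines. Its log2 FC of -0.11 was not significant (adjusted p = 0.322 from limma), and the 95% confidence interval ran from -0.28 to 0.050. At this signal the presence of the transcript could not be judged.

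Fst, the gene of follistatin, rose together with the β subunits that its product binds. Its log2 intensity was 10.51, 10.16 and 10.56 on the AGR arrays, against 8.89, 8.88 and 8.82 on the NME arrays. The lowest AGR array was above the highest NME array by more than the spread within either line. The FC was 2.92 (log2 FC 1.54, SE 0.11, adjusted p = 0.00011 from limma). Fstl3, whose product is a second activin-binding protein of this family, had log2 intensities of 8.73, 8.69 and 8.65 on the AGR arrays and 8.51, 8.75 and 8.62 on the NME arrays. These overlapped, and the log2 FC of 0.065 did not pass (adjusted p = 0.588 from limma; 95% confidence interval -0.097 to 0.23). Fstl1, a secreted glycoprotein gene related to Fst through its follistatin-like domain, was under the median of all probe sets in both lines, at 6.69 ± 0.050 (SD, n = 3) in AGR cells and 6.76 ± 0.17 (SD, n = 3) in NME cells. It had a log2 FC of -0.071 (adjusted p = 0.650 from limma; 95% confidence interval -0.28 to 0.14).

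The change of Inhba was larger than that of Fst, while the change of Inhbb was close to it. To set them side by side, the log2 value of Fst was subtracted from that of Inhba on each array, and the mean of the NME arrays was set to 0. This difference was 0.57, 1.25 and 0.69 on the AGR arrays, against -0.049, 0.045 and 0.0042 on the NME arrays. Inhba thus gained 1.79-fold on Fst, and AGR replicate 2 gave the largest value. The same difference between Inhbb and Fst was 0.15, 0.23 and -0.10 on the AGR arrays and 0.13, -0.080 and -0.054 on the NME arrays, which overlapped. Between Inhba and Inhbb it was 0.42, 1.02 and 0.79 on the AGR arrays, against -0.18, 0.12 and 0.058 on the NME arrays. These differences are given as a description with no test.

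The receptor genes were then examined. Acvr2a, which encodes a type II receptor for activin, was the only one of the 4 receptor genes that passed the test. Its log2 intensity was 9.19, 9.60 and 9.46 on the AGR arrays, against 10.16, 9.89 and 10.13 on the NME arrays. The groups did not overlap, and replicate 2 of each line lay closest to the other line. The log2 FC was -0.64 (SE 0.12, adjusted p = 0.0078 from limma), so that the AGR level was 0.640 of the NME level. It did not pass with the methods' two-sided test (adjusted p = 0.0615), and its adjusted p was between 0.0034 and 0.043 under the other alternatives. Acvr2b, the gene of the other type II receptor, had log2 intensities of 8.81, 8.81 and 8.85 on the AGR arrays and 8.79, 8.78 and 8.72 on the NME arrays. The values lay just apart, but the log2 FC of 0.055 did not pass (adjusted p = 0.456 from limma; 95% confidence interval -0.048 to 0.16).

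Acvr1b, the type I receptor gene that carries the activin signal, had a log2 intensity of 9.28 ± 0.0095 (SD, n = 3) in AGR cells and 9.37 ± 0.042 (SD, n = 3) in NME cells. Its log2 FC of -0.089 did not pass (adjusted p = 0.202 from limma; 95% confidence interval -0.19 to 0.012). Acvr1, or ALK2, is a type I receptor that mainly transmits BMP signals. It had 10.01 ± 0.076 (SD, n = 3) in AGR cells and 10.17 ± 0.10 (SD, n = 3) in NME cells, a log2 FC of -0.16 (adjusted p = 0.154 from limma; 95% confidence interval -0.32 to 0.0020). For both genes every AGR array was below every NME array by a small margin. Values of the lines did not overlap for 7 of the 10 genes, 4 higher and 3 lower in AGR cells. The same held for 36.4% of all genes, 17.9% higher and 18.5% lower. The intervals of Acvr1, Acvr1b and Acvr2b exclude a 2-fold change of the measured signal in either direction.

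**Figure D2:**
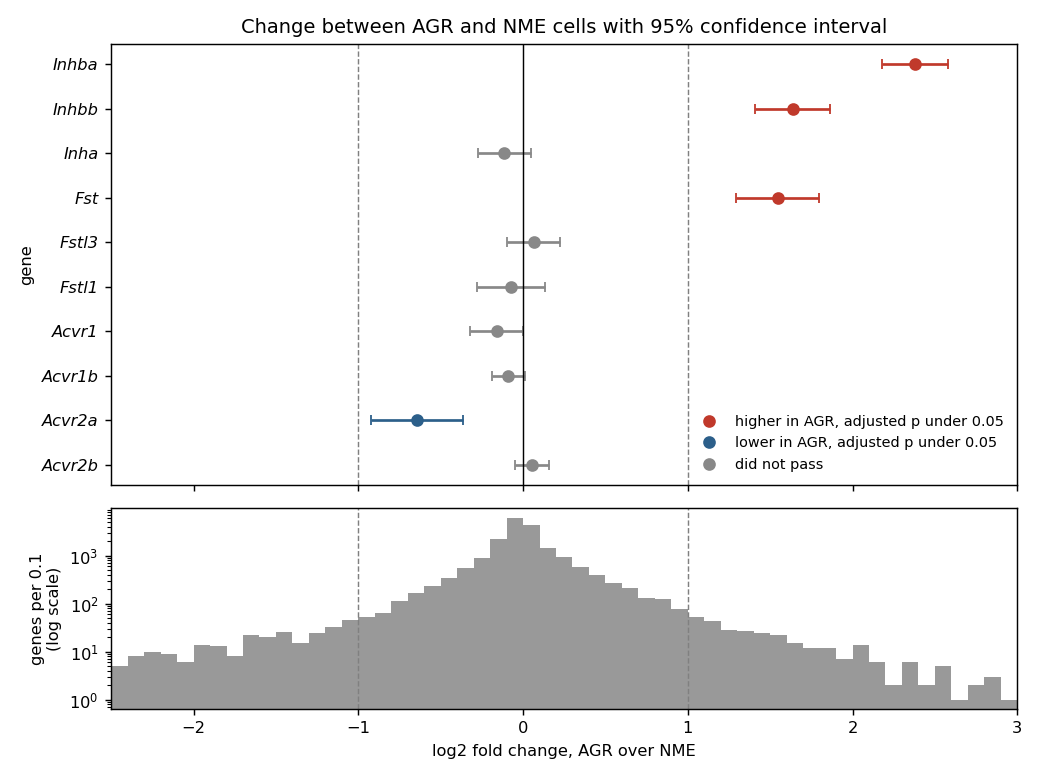
Top, log2 fold change of AGR over NME cells (x axis) for the 10 genes, with 95% confidence intervals from limma. Red marks genes called higher in AGR cells, blue the gene called lower and gray those that were not called at an adjusted p of 0.05, and dashed lines mark a 2-fold change, which Inhba (2.38), Inhbb (1.64) and Fst (1.54) exceeded. Bottom, number of all 19938 genes per 0.1 of log2 fold change on a log scale, with genes outside the x range not drawn.

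Replicate spread differed among the genes that changed. The SD of Fst on the AGR arrays was 0.22, higher than that of 93.5% of all genes, and that of Acvr2a was 0.20, higher than 92.1%. On the NME arrays the SD of Fst was 0.034, under the median of all genes at 0.067. Among the AGR arrays, replicate 2 had the highest value of Inhba and of Acvr2a and the lowest of Inhbb and of Fst. Without this array the log2 FC was 2.30 for Inhba, 1.69 for Inhbb, 1.67 for Fst and -0.73 for Acvr2a, and all 4 passed the limma test (adjusted p of 2.7e-05, 2.5e-04, 2.3e-05 and 0.0061).

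The other genes of the pathway were read from 5 lists arranged by role, also chosen with earlier results of these data known. Of 45 listed genes 40 were measured, and the others were not analysed here. In AGR cells 11 of the 40 rose and 1 fell at an adjusted p under 0.05 from limma, against 12.6% and 11.6% of all genes, and the median log2 FC was 0.010. Of 10 SMADs and their regulators, 4 rose and 0 fell, with a median log2 FC of 0.14 (0 fell at an unadjusted p under 0.05 or with the methods' test). Of 8 known SMAD2/3-responsive genes, 4 rose and 0 fell, with a median log2 FC of 0.28 (0 fell at an unadjusted p under 0.05 or with the methods' test). These genes also respond to TGF-β, which uses the same SMADs.

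The SMADs that carry the activin signal rose together by a small amount. Smad2 had a log2 intensity of 10.99, 11.05 and 11.05 on the AGR arrays, against 10.70, 10.59 and 10.67 on the NME arrays, a log2 FC of 0.38 (adjusted p = 0.0016 from limma). Smad3 had 12.26, 12.38 and 12.37 on the AGR arrays, against 11.83, 11.81 and 11.92 on the NME arrays, a log2 FC of 0.48 (adjusted p = 9.3e-04 from limma). Smad4, their common partner, had a log2 FC of 0.36 (adjusted p = 0.0018 from limma). All 3 were separated from the NME arrays on every AGR array, and none reached a FC of 2. Ski, a corepressor of SMADs, had a log2 FC of 0.37 (adjusted p = 0.0029 from limma).

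Among the responsive genes, Ldlrad4, whose product restrains SMAD2/3 phosphorylation, was the one with a FC above 2. Its log2 intensity was 9.88, 9.65 and 9.86 on the AGR arrays, against 8.38, 8.58 and 8.46 on the NME arrays, a FC of 2.50 (log2 FC 1.32, SE 0.083, adjusted p = 7.8e-05 from limma). Smad7, the inhibitory SMAD, had 10.96, 11.30 and 11.13 on the AGR arrays, against 10.25, 10.17 and 10.44 on the NME arrays, a log2 FC of 0.85 (adjusted p = 0.0015 from limma). Pmepa1, another inhibitor of the pathway, had a log2 FC of 0.50 (adjusted p = 1.7e-04 from limma). Of the 4 responsive genes that rose, these 3 encode inhibitors of SMAD signaling, but so does Skil on the same list, which did not pass. The list holds several such inhibitors, so this share is not read as a result. The other responsive gene that rose was Ccn2, the gene of connective tissue growth factor, with a log2 FC of 0.93 (adjusted p = 5.7e-04 from limma). The log2 FCs of Skil, Cdkn2b, Tgfbi and Tagln were 0.059, -0.074, -0.033 and 0.018 and did not pass. Tagln lay at 7.10 in AGR cells and 7.08 in NME cells, under the median of all probe sets, so that its change could not be judged. Tgfbi, at 7.75 and 7.78, was only just above that median.

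**Figure D3:**
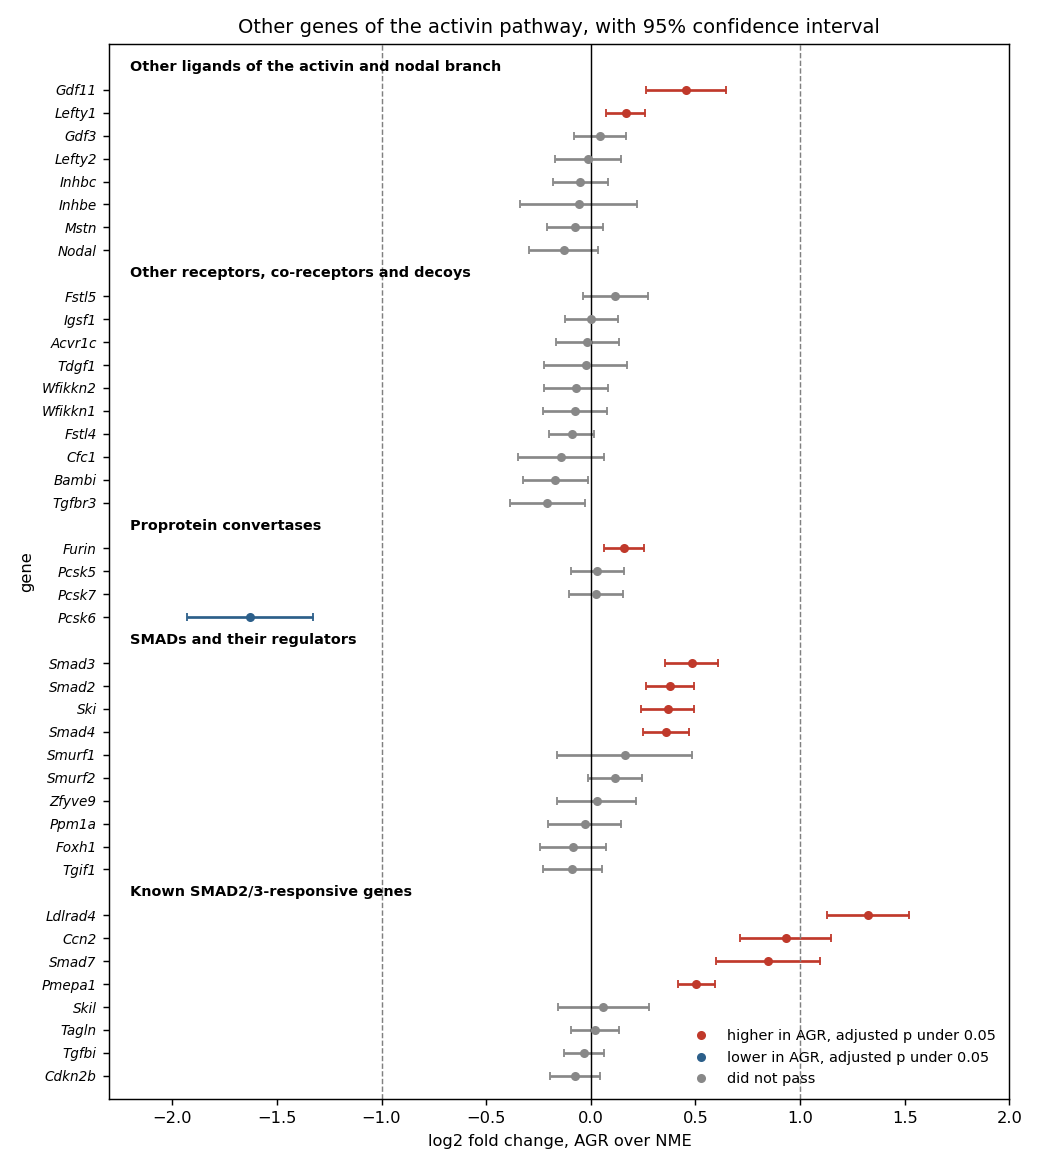
Log2 fold change of AGR over NME cells (x axis) with 95% confidence intervals from limma for the 40 measured genes of the 5 pathway lists (y axis, grouped by role). Red marks genes called higher in AGR cells, blue the gene called lower and gray those that were not called, and dashed lines mark a 2-fold change. Ldlrad4 (1.32) and Pcsk6 (-1.63) lie beyond these lines, and Smad2, Smad3 and Smad4 lie between 0.36 and 0.48.

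Activin precursors are cut by proprotein convertases before they are active. Of 4 such genes 1 rose and 1 fell. Pcsk6, which encodes PACE4, was the one that fell. Its log2 intensity was 10.23, 10.62 and 10.19 on the AGR arrays, against 11.90, 12.13 and 11.91 on the NME arrays, and the AGR level was 0.324 of the NME level (log2 FC -1.63, SE 0.13, adjusted p = 2.0e-04 from limma). Furin had a log2 FC of 0.16 that passed in the comparison of all arrays (adjusted p = 0.029 from limma) but not without any 1 of AGR replicates 1 and 3 and NME replicates 1, 2 and 3 (adjusted p of 0.061, 0.077, 0.090, 0.064 and 0.052). Pcsk5 and Pcsk7 had log2 FCs of 0.031 and 0.025 and did not pass. Pcsk5 lay at 7.09 in AGR cells and 7.06 in NME cells, under the median of all probe sets, so that its change could not be judged.

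Of 8 measured genes for other ligands of the activin and nodal branch, 2 rose and 0 fell (0 also at an unadjusted p under 0.05 and with the methods' test), and 6 of the 8 lay under the median of all probe sets in both lines. Gdf11, whose product also signals through type II activin receptors, had a log2 FC of 0.45 (adjusted p = 0.0065 from limma). Lefty1, the gene of a nodal antagonist, lay at 7.69 in AGR cells and 7.52 in NME cells, under the median of all probe sets on the NME arrays, so that the size of its change could not be judged. Its log2 FC of 0.17 (adjusted p = 0.022 from limma) did not pass without any 1 of AGR replicates 1 and 3 and NME replicates 2 and 3 (adjusted p of 0.056, 0.054, 0.051 and 0.079). Of 10 measured genes for other receptors, co-receptors and decoys, 7 lay under the median of all probe sets in both lines, where changes could not be judged. Of the 10, 0 rose and 0 fell in limma or with the methods' test, and 2 were lower at an unadjusted p under 0.05 in limma. Those were Tgfbr3, the gene of betaglycan, an inhibin co-receptor, with a log2 FC of -0.21 (adjusted p = 0.098 from limma), and Bambi, the gene of a decoy receptor, with -0.17 (adjusted p = 0.115). Tgfbr3 passed only without NME replicate 1 (log2 FC -0.28, adjusted p = 0.033 from limma). Tgfbr3 lay at 7.11 in AGR cells and 7.32 in NME cells, under the median of all probe sets, so that its change could not be judged. Acvr1c, which encodes the type I receptor ALK7, lay at 6.27 in AGR cells and 6.28 in NME cells, under the median of all probe sets.

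The genomic surroundings of the 10 genes were examined to see whether a gene moved alone. The 3 nearest measured genes on either side gave 60 neighbours, of which 10 were called higher and 6 lower in AGR cells. This compares with 12.6% and 11.6% of all genes. The neighbours of Inhba had log2 FCs of 0.0057 to 0.37, those of Inhbb of -0.21 to 0.19, and those of Fst of -0.39 to 0.39, so that each of these changes was smaller than that of the gene between them. Around Acvr2a 4 of the 6 neighbours were called. Orc4, Epc2 and Kif5c, which follow Acvr2a in the order of measured genes, had log2 FCs of -0.54, -0.19 and -1.82 (adjusted p of 0.018, 0.023 and 4.3e-05 from limma). Orc4, which encodes a subunit of the origin recognition complex, had log2 intensities of 9.20, 9.70 and 9.47 on the AGR arrays, against 10.07, 10.01 and 9.91 on the NME arrays. On the other side, Zeb2, the gene of an EMT transcription factor, rose with a log2 FC of 1.24 (adjusted p = 1.9e-04 from limma). Zeb2 and Kif5c were the only neighbours of the 10 genes that passed with a FC above 2. Copy number was not analysed here.

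**Figure D4:**
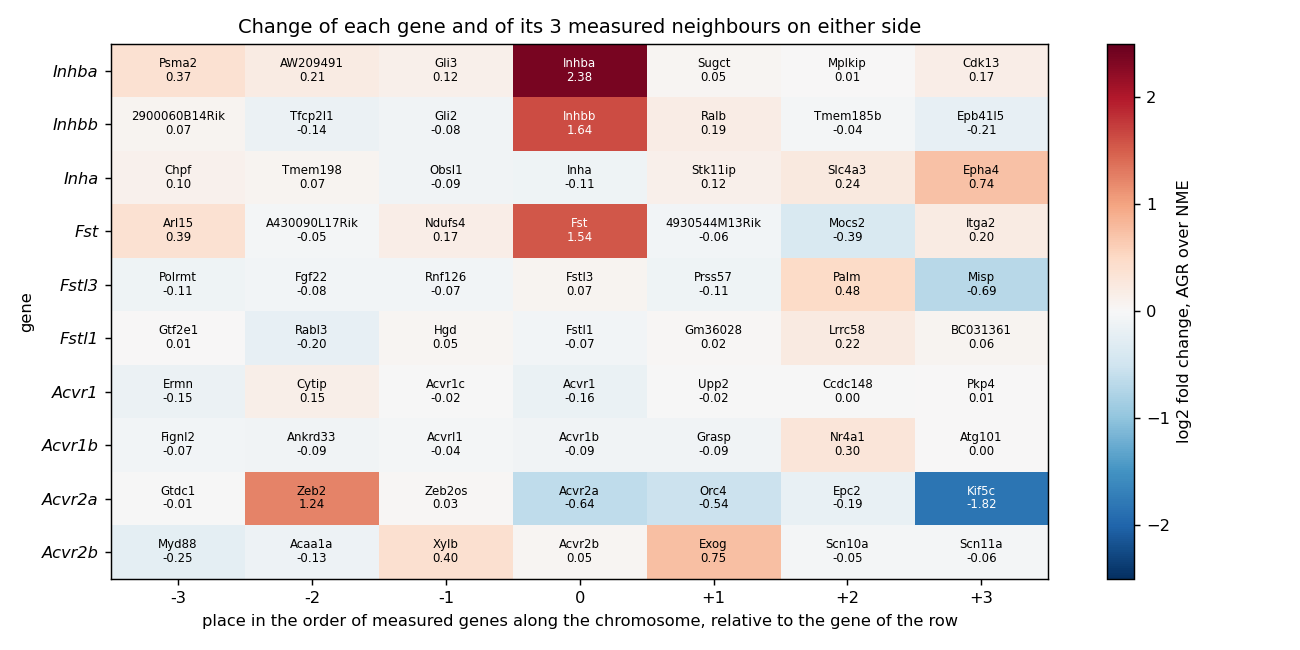
Log2 fold change of AGR over NME cells (colour and printed value) of each of the 10 genes (rows, place 0) and of the 3 measured genes before and after it along the chromosome (columns). Inhba, Inhbb and Fst stand out from their neighbours, while Orc4, Epc2 and Kif5c next to Acvr2a (-0.64) are lower as well and Zeb2 is higher (1.24).

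For Inhba and Fst the genes with the most similar pattern were sought among 17067 genes, as the smallest root mean square difference of log2 values over the 6 arrays after centring each gene on its mean. For Inhba these were Glipr2, Adgra2 and P3h2, with differences of 0.056, 0.071 and 0.079 and log2 FCs of 2.34, 2.26 and 2.50. For Fst they were Pim1, Gjc1 and Casp12, with differences of 0.062, 0.063 and 0.067 and log2 FCs of 1.61, 1.49 and 1.49. The pattern is mostly the step between the 2 cell lines, and 1161 genes correlated with Inhba and 1206 with Fst at a Pearson r above 0.95.

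Markers of other cell types were read as well. Summed intensities of 7 fibroblast markers were 1429 to 1507 on the AGR arrays and 1377 to 1534 on the NME arrays, with Pdgfra higher in AGR cells (log2 FC 0.39, adjusted p = 0.0082 from limma) and 0 lower in limma, at an unadjusted p under 0.05 or with the methods' test. In NME cells Pdgfra had a mean of 7.41, which is under the median of all probe sets. Those of 6 markers of macrophages and other immune cells were 1200.2 to 1236 on the AGR arrays, against 912 to 973 on the NME arrays. Most of this difference came from Cd68 alone, with mean log2 intensities of 8.93 in AGR cells and 7.96 in NME cells. Of these 6 markers Cd68 and Csf1r rose in limma, with log2 FCs of 0.96 and 0.28, and 1 of the 6 was higher with the methods' test. Csf1r had a mean of 7.56 in NME cells, also under the median of all probe sets. Itgam had a log2 FC of -0.18 and did not pass (unadjusted p = 0.027, adjusted p = 0.094 from limma). Itgam, Adgre1 and Ptprc, the pan-leukocyte marker, lay under the median of all probe sets in both lines, where changes could not be judged. Of 5 endothelial and 4 adipocyte markers 0 passed in limma, at an unadjusted p under 0.05 or with the methods' test. The part of these markers in the changes of the activin genes was not tested. Of 10 markers of mammary epithelium Cdh1 fell (log2 FC -0.60, adjusted p = 4.7e-04 from limma) and 0 rose. At an unadjusted p under 0.05, 2 were lower in limma and 3 with the methods' test, and 0 were higher in either. The second in limma was Krt14 (log2 FC -0.25, unadjusted p = 0.015, adjusted p = 0.058). Krt14 lay under the median of all probe sets in both lines.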

How the data were processed

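Samples of AGR cells and of NME cells, 3 each, were run on Mouse Gene 1.0 ST arrays. The deposited files hold linear intensities of 35557 probe sets after processing by the authors. The submitters' processing notes name MAS5 without settings, and this array type lacks the mismatch probes that MAS5 uses, so the normalization is unknown. No detection calls were used, and precision is limited by the small number of arrays.

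Log2 was taken with no offset or further normalization. Probe sets with 1 gene symbol (21789) were kept, 1621 with several and 12147 with none were left out, and the brightest stood for each gene. AGR and NME were compared by moderated linear models (limma 3.58.1, R 4.3.3, functions lmFit and eBayes). P-values of all 19938 genes were adjusted by the Benjamini-Hochberg method, with a threshold of 0.05. The limma step was tested on simulated data with known fold changes. The genes and lists were chosen with earlier results of these data known. The text names all 10 genes, up to 4 called genes in each direction of each pathway list (with Acvr1c, Tgfbr3, Smad2, Smad3, Smad4 and Smad7 in any case), the 3 genes most like Inhba and Fst, and neighbours with a FC above 2. Bambi, Skil, Cdkn2b, Tgfbi, Tagln, Pcsk5, Pcsk7, Orc4, Epc2 and the cell type markers were named after their values were seen. The order of neighbouring genes came from RefSeq (GRCm38.p6), matched by gene ID for 19856 genes. Each comparison was repeated with quantile normalization, median centring, filters on dim genes, averaging of a gene's probe sets, and trend and robust settings. Further repeats used the methods' two-sided t-test with equal variances, replicate number as blocking factor, addition of 16 before log2 and each array left out. Those repeats for the pathway genes and other named genes were added after the data had been seen.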

Additional observations from a re-analysis of the deposited data

How the results depend on the processing

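Inhba, Inhbb and Fst were called higher under all 15 alternatives run, with log2 FCs of 2.30 to 2.46, 1.56 to 1.72 and 1.47 to 1.67. The number of the 10 genes called lower was 1, Acvr2a. This number became 0 with the methods' two-sided t-test (adjusted p = 0.0615, where 2 genes were lower at an unadjusted p under 0.05). It was also 0 in limma when a FC above 2 was required as well. The 6 genes that did not pass stayed so under every alternative run, and no log2 FC of the 10 genes changed sign. Inha and Fstl1 were too dim for the stricter filter and had 14 alternatives. Of the 40 other pathway genes, between 9 and 11 were called higher and between 1 and 2 lower when single arrays were left out, the second being Tgfbr3 without NME replicate 1. The log2 FC of Acvr1c was -0.016 and turned to 0.012 with quantile normalization and 0.010 with median centring, and it ranged from -0.046 to 0.041 when single arrays were left out.

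The replicate numbers of the titles were examined as a block. Deviations of same-numbered arrays from the mean of their line correlated at -0.13, 0.33 and 0.26 over genes, 3 of the 6 arrays correlated best with their own number, and nothing in the labels ties the numbers to a shared culture or day. With the replicate block 3 of the 10 genes were higher and 1 was lower, as without it, and over all genes 2728 were higher and 2312 lower, against 2515 and 2304. With the block 9 of the pathway genes were higher, and Lefty1 (adjusted p = 0.065 from limma) and Furin (adjusted p = 0.075 from limma) did not pass. Depth cannot be read from array intensities. Changes of Inha, Fstl1, Acvr1c, Tgfbr3, Tagln, Pcsk5 and Itgam, under the median of all probe sets, could not be judged.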
